A study of Mus musculus with 18 samples.

Results

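The genes described here are 10 components of the Notch pathway in cultured mouse muscle cells: the ligands Dll1, Jag1 and Jag2, the receptors Notch1, Notch2 and Notch3, the DNA-binding factor Rbpj and the target genes Hes1, Hey1 and Heyl. They were chosen by name, with no measured value in the rule, though earlier results of these data were known at that time. They are 10 of the 35275 genes in the deposited expression table. Polyadenylated RNA of C2C12 cells, a mouse myoblast line, was sequenced in 18 libraries of 6 groups, 3 libraries in each. MUNC is a long noncoding RNA made from DNA upstream of Myod1, the gene of a master muscle transcription factor. Control cells, which the labels call wild-type, were compared with cells overexpressing the spliced form of MUNC (MUNC spliced) and cells overexpressing its genomic, unspliced form (MUNC genomic). Each of these 3 lines was sampled near confluence in serum-rich growth medium (GM) and after 3 days in low-serum differentiation medium (DM3). The labels describe the whole stock as PAX7 negative. The vector, its promoter and whether a line is 1 clone or a pool are not given in the sources used here, and the level of MUNC itself was not analysed here.

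Notch receptors are cut when a ligand on a neighbouring cell pulls on them, and the freed intracellular piece enters the nucleus, joins Rbpj and Mastermind-like coactivators on DNA, and turns on genes of the Hes and Hey families. Without that piece Rbpj sits with corepressors. In muscle the pathway is known for keeping satellite cells and myoblasts undifferentiated, with Hes and Hey proteins acting as repressors of myogenic genes, and Dll1 on committed cells is a known ligand for their neighbours.

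Levels are in FPM, a gene's reads after scaling by library size factors, and differences are of log2(FPM + 1), a scale that shrinks the changes of genes near 0. Recovered depth was 38416702 to 68788327 reads a library, and 3 reads were at most 0.0757 FPM. All 10 members passed the filter of 0.5 FPM in at least 3 libraries, Heyl through libraries of the MUNC lines alone (12 of 12, and 0 of 6 control libraries). Hey1 reached 0.5 FPM in 10 libraries, none of them of control DM3 or MUNC genomic DM3. Dll1 reached it in 13 libraries, none of them of control GM. The titles mark the libraries of a group with BR and a number, which the labels do not spell out, and nothing says that they came from separate cultures. A p-value here then measures only the spread between these libraries, which may be technical. Myf5, a myoblast factor, was read in every group (group means 26.7 to 107.6 FPM), whereas Pax7 averaged at most 0.0727 FPM. Myod1 had 5 reads over the control GM libraries and 16 over those of DM3, and averaged 12.4 FPM in MUNC spliced GM, 3.84 in MUNC genomic GM, 28.6 in MUNC spliced DM3 and 18.4 in MUNC genomic DM3. A 12-gene myotube list, of which 10 genes were in the table, summed in control to 23.4, 13.7 and 32.8 FPM in GM and to 31.0, 62.5 and 57.7 FPM in DM3. Its DM3 sums were 1004, 192 and 239.8 FPM in the MUNC spliced line, where replicate 1 stood apart, and 143, 219 and 122 FPM in MUNC genomic DM3. The list did not move as one in control. There Tnnt1 averaged 0.548 FPM in GM and 34.8 FPM in DM3, and Tnnt3 and Mylpf rose to 6.14 and 3.35 FPM. Acta1 instead went from 20.7 to 4.35 FPM and Casq2 from 0.670 to 0.535 FPM. Myog, Myh3, Tnni1 and Ckm averaged at most 0.444 FPM in control DM3. Mesenchymal markers summed to 1208 to 7083 FPM, and endothelial and leukocyte markers to at most 7.64 FPM, in the 18 libraries. Neural marker sums were highest in MUNC spliced GM (31.2 to 92.0 FPM) and control GM (20.4 to 64.9 FPM), and at most 22.0 FPM elsewhere. Adipocyte marker sums were 8.12 to 14.8 FPM in MUNC spliced, 1.22 to 10.4 FPM in MUNC genomic and 0.953 to 6.34 FPM in control libraries. The largest group means in these lists were of Tubb3 (neural, 58.3 FPM in MUNC spliced GM) and Cebpa (adipocyte, 13.8 FPM in MUNC spliced DM3). Of 5 endothelial markers Cdh5 alone averaged above 0.5 FPM in MUNC genomic cells (7.14 FPM in GM and 4.20 FPM in DM3). The part of these markers in the Notch results was not tested, and in bulk RNA fewer cells of a type cannot be told apart from less RNA per cell.

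Dll1 and Notch1 are the ligand and the receptor with the greatest differences from control, and Rbpj is the factor through which Notch signals reach DNA. Their upstream DNA is shown for that reason. Each run is the 250 bases before a start site that RefSeq lists on GRCm38.p6, the mm10 build, printed 5′ to 3′ on the gene's strand: minus for Dll1 (chr17:15376933-15377182, the second of 2 listed start sites) and Notch1 (chr2:26503823-26504072), plus for Rbpj (chr5:53590096-53590345, the first of 2). Capitals mark TTCCCA or TGGGAA, the core of the letters that Rbpj binds, and CAGCTG or else CAGGTG or its complement CACCTG, E-box letters of the kind that MyoD-family factors bind.
Dll1: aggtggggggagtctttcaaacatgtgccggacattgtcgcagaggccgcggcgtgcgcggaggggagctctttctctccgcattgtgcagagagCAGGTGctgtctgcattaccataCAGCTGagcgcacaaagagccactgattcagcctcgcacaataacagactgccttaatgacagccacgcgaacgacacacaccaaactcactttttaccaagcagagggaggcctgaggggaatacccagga
Notch1: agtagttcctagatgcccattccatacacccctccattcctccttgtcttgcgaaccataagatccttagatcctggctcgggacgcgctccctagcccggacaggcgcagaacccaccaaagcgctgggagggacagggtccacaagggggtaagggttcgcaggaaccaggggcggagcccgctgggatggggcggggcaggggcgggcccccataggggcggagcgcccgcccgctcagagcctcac
Rbpj: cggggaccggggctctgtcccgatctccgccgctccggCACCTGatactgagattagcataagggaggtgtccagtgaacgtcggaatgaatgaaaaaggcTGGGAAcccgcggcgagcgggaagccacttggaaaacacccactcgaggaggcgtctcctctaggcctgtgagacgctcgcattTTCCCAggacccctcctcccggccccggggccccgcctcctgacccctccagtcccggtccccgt

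The Dll1 run holds CAGGTG at 155 to 150 bases and CAGCTG at 132 to 127 bases before the start, and neither Rbpj core. The Notch1 run holds none of these letters. The Rbpj run holds CACCTG at 212 to 207, TGGGAA at 149 to 144 and TTCCCA at 65 to 60 bases before the start. The window of the other listed Dll1 start (chr17:15375824-15376073), not printed, holds none of these letters. That of the other listed Rbpj start (chr5:53590236-53590485) holds TTCCCA at 205 to 200 bases before that start, and no E-box letters. The full TTCCCAC, read GTGGGAA on the other strand, was in no window of the 7 members with an entry. On either strand that 7-base word was in 5.42% of 32851 windows of the same length, the TTCCCA core in 21.6%, CAGCTG in 13% and CAGGTG or CACCTG in 17.2%. These are matches of letters in 1 window, not binding sites.

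In most of the 11 comparisons the share of members called lay near or below that of all tested genes; with 10 members, each one counts for 10 percentage points. A gene was called at a limma adjusted p under 0.05. Differentiation here names the change of medium, DM3 against GM, and not a degree of myotube formation. In control cells it called 4 of 10 members, beside 58.2% of the 13869 tested genes. Differentiation called 4 of 10 in MUNC spliced cells, beside 35.6%, and 6 of 10 in MUNC genomic cells, beside 51.4%. Against control in GM, 4 of 10 were called in MUNC spliced (background 35.5%) and 4 of 10 in MUNC genomic cells (background 26.8%). Against control in DM3, 4 of 10 were called in MUNC spliced (background 43.3%) and 4 of 10 in MUNC genomic cells (background 40.3%). MUNC spliced against MUNC genomic gave 3 of 10 in GM (background 35.8%) and 5 of 10 in DM3 (background 44.2%). The interaction with differentiation, which asks whether a line's DM3 minus GM difference departs from that of control, called 3 of 10 for MUNC spliced (background 14.4%) and 2 of 10 for MUNC genomic (background 8.81%). Comparisons with control share the same control libraries and are not independent of each other.

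**Figure D1:**
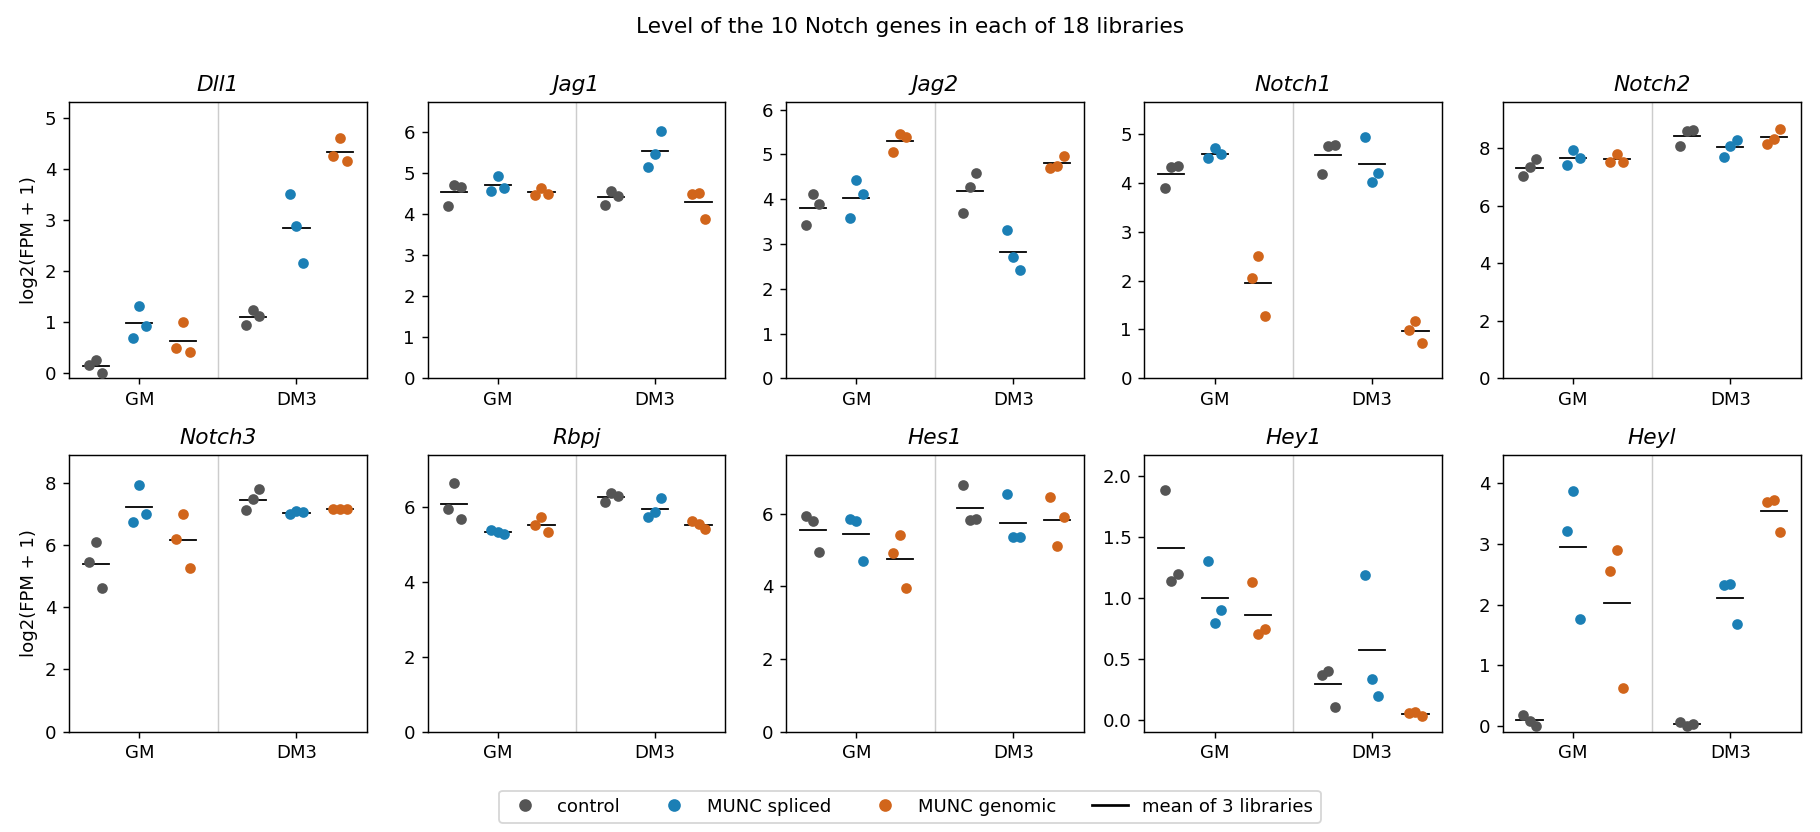
Level of each of the 10 genes, as log2(FPM + 1) on the vertical axis, in the 18 libraries, with growth medium (GM) on the left and differentiation medium (DM3) on the right of each panel; points are libraries coloured by line, and bars are means of 3. Notch1 is low in all 6 MUNC genomic libraries, Heyl is near 0 in all 6 control libraries, and Dll1 is highest in MUNC genomic DM3 (17.0 to 23.5 FPM).

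Dll1, a Delta-type ligand (chromosome 17, 15367354 to 15376872, minus strand), was almost silent in growing control cells and rose in differentiation medium in all 3 lines, with the highest level in MUNC genomic cells. It measured 0.119, 0.195 and 0 FPM in control GM, 0.606, 1.503 and 0.902 FPM in MUNC spliced GM and 0.415, 0.996 and 0.336 FPM in MUNC genomic GM. In DM3 it measured 0.922, 1.36 and 1.18 FPM in control, 10.4, 6.39 and 3.47 FPM in MUNC spliced and 18.1, 23.5 and 17.0 FPM in MUNC genomic cells. Within each line every DM3 library was above every GM library, and in DM3 the 3 lines did not overlap, with control lowest and MUNC genomic highest. As ratios of mean FPM, DM3 was 11.02-fold above GM in control, 6.74-fold in MUNC spliced and 33.5-fold in MUNC genomic cells. The control ratio was 19.3 without control GM replicate 2 and 7.35 without control GM replicate 3, and the MUNC genomic ratio was 52.01 without MUNC genomic GM replicate 2.

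Those rises passed the test in control (log2 difference 0.96, SE 0.26, limma adjusted p = 0.0051; edgeR 3.44), in MUNC spliced (log2 difference 1.88, SE 0.26, limma adjusted p = 7.94e-05) and in MUNC genomic cells (log2 difference 3.71, SE 0.26, limma adjusted p = 1.07e-07). Set against control in DM3, Dll1 was higher in MUNC spliced (log2 difference 1.75, SE 0.26, limma adjusted p = 5.91e-05) and in MUNC genomic cells (log2 difference 3.24, SE 0.26, limma adjusted p = 4.64e-08). MUNC genomic exceeded MUNC spliced in DM3, with a spliced minus genomic log2 difference -1.49, SE 0.26, limma adjusted p = 0.000219. Without MUNC spliced DM3 replicate 1, the library highest in its group for Dll1 and for myotube genes, the excess of MUNC spliced over control in DM3 was 1.42 on the log2 scale and still passed in limma (adjusted p = 0.000209).

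Low counts set the precision for Dll1 in GM, where the 3 control libraries held 18 reads in all. MUNC spliced GM was above control GM in every library (log2 difference 0.84, SE 0.26, limma adjusted p = 0.0209), but the call was lost in limma without MUNC spliced GM replicate 2 (0.67, adjusted p = 0.101), without control GM replicate 3 (0.77, adjusted p = 0.0674) and without the filter on low values (adjusted p = 0.054). On the recovered reads edgeR gave a log2 fold change of 3.25 with an adjusted p of 0.00153. MUNC genomic GM was also above control GM in every library, and its difference of 0.50 did not pass in limma (adjusted p = 0.18); with the replicate number as a block within the medium it did (adjusted p = 0.00869), as did MUNC spliced minus MUNC genomic in GM (0.34, limma adjusted p = 0.0396). The DM3 minus GM difference of MUNC genomic cells exceeded that of control by 2.75 (SE 0.37, limma adjusted p = 0.000191). That interaction was not called on the ratio scale, where edgeR gave 1.60 (adjusted p = 0.367) and DESeq2 1.57 (adjusted p = 0.206). Dll1 shares 20.5% of its exon bases with A930024N18Rik on the opposite strand, which held at most 0.452 FPM; whether counting used strand is not given in the sources used here.

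Jag1, a Jagged-type ligand (chromosome 2, 137081456 to 137116644, minus strand), was highest in MUNC spliced DM3. In growth medium it was at 17.4, 25.1 and 24.3 FPM in control GM, 22.5, 29.3 and 23.9 FPM in MUNC spliced GM and 21.1, 23.7 and 21.2 FPM in MUNC genomic GM. Its DM3 levels were 17.6, 22.5 and 20.8 FPM in control, 34.4, 43.0 and 63.7 FPM in MUNC spliced and 21.3, 21.8 and 13.7 FPM in MUNC genomic cells. All 3 MUNC spliced DM3 libraries lay above the 15 others, which ran from 13.7 to 29.3 FPM. Jag1 rose with differentiation in MUNC spliced cells (log2 difference 0.84, SE 0.21, limma adjusted p = 0.00623), and in DM3 these exceeded control (log2 difference 1.13, SE 0.21, limma adjusted p = 0.000444) and MUNC genomic cells (log2 difference 1.25, SE 0.21, limma adjusted p = 0.000151). The interaction of MUNC spliced with differentiation was near the threshold (log2 difference 0.95, SE 0.30, limma adjusted p = 0.0444) and was lost in 9 of 12 fits that left out 1 library, in which the adjusted p over all 12 ran from 0.0215 to 0.0925. It kept the call without MUNC spliced DM3 replicate 1, MUNC spliced GM replicate 2 or control GM replicate 1, and lost it without the filter, with equal sums, with quantile normalization and with only the groups compared (limma adjusted p = 0.084, 0.0606, 0.0598 and 0.0705).

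Jag2, the other Jagged ligand (chromosome 12, 112907819 to 112929776, minus strand), was highest in MUNC genomic GM and lowest in MUNC spliced DM3. Its GM levels were 9.78, 16.5 and 13.8 FPM in control GM, 10.9, 20.5 and 16.3 FPM in MUNC spliced GM and 32.0, 43.2 and 41.0 FPM in MUNC genomic GM. After 3 days in DM3 it was at 11.8, 18.2 and 23.1 FPM in control, 8.90, 5.58 and 4.32 FPM in MUNC spliced and 25.1, 25.8 and 30.2 FPM in MUNC genomic cells. Neither of these groups overlapped any other. Jag2 was higher in MUNC genomic than in control GM (log2 difference 1.49, SE 0.27, limma adjusted p = 0.000644), a 2.90-fold ratio of mean FPM. It fell with differentiation in MUNC spliced cells (log2 difference -1.22, SE 0.27, limma adjusted p = 0.00249) and ended below control DM3 (log2 difference -1.37, SE 0.27, limma adjusted p = 0.000709). The spliced minus genomic difference was -1.26 in GM (SE 0.27, limma adjusted p = 0.00167) and -1.99 in DM3 (SE 0.27, limma adjusted p = 1.67e-05). The MUNC spliced interaction was -1.59 (SE 0.38, limma adjusted p = 0.0133). In DM3 MUNC genomic libraries were all above control, with a difference of 0.63 that did not pass in limma (adjusted p = 0.0765); it did in the authors' deposited table (log2 fold change 0.63, adjusted p = 0.013).

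Scaled by exon length, the make-up of the ligand messages differed by line and medium. Jag1 made up 66.5% ± 2.07 (SD, n = 3) of the length-scaled signal of the 3 ligands in control GM, Jag2 33.1% ± 1.86 and Dll1 0.443% ± 0.384. In MUNC genomic GM Jag2 took 58.5% ± 3.04 of that signal. In MUNC genomic DM3 Dll1 took 39.2% ± 3.17, whereas in MUNC spliced DM3 Jag1 took 75.2% ± 13.6 and Jag2 8.84% ± 4.14. The sum of the 3 ligands was 5.76 ± 1.20 FPM per kb of exon in control GM, and in DM3 6.30 ± 1.19 in control, 10.6 ± 1.55 in MUNC spliced and 11.8 ± 1.17 in MUNC genomic cells (mean ± SD, n = 3 libraries each). In MUNC genomic cells it was already 9.48 FPM per kb in GM (libraries 8.32 to 10.5). In MUNC spliced cells the GM mean was 6.85 FPM per kb (libraries 5.57 to 8.34). In DM3 the sums of both MUNC lines overlapped, and in MUNC genomic cells Jag2 held 33.4% ± 6.32 and Jag1 27.4% ± 5.01 beside Dll1. These shares were not tested.

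**Figure D2:**
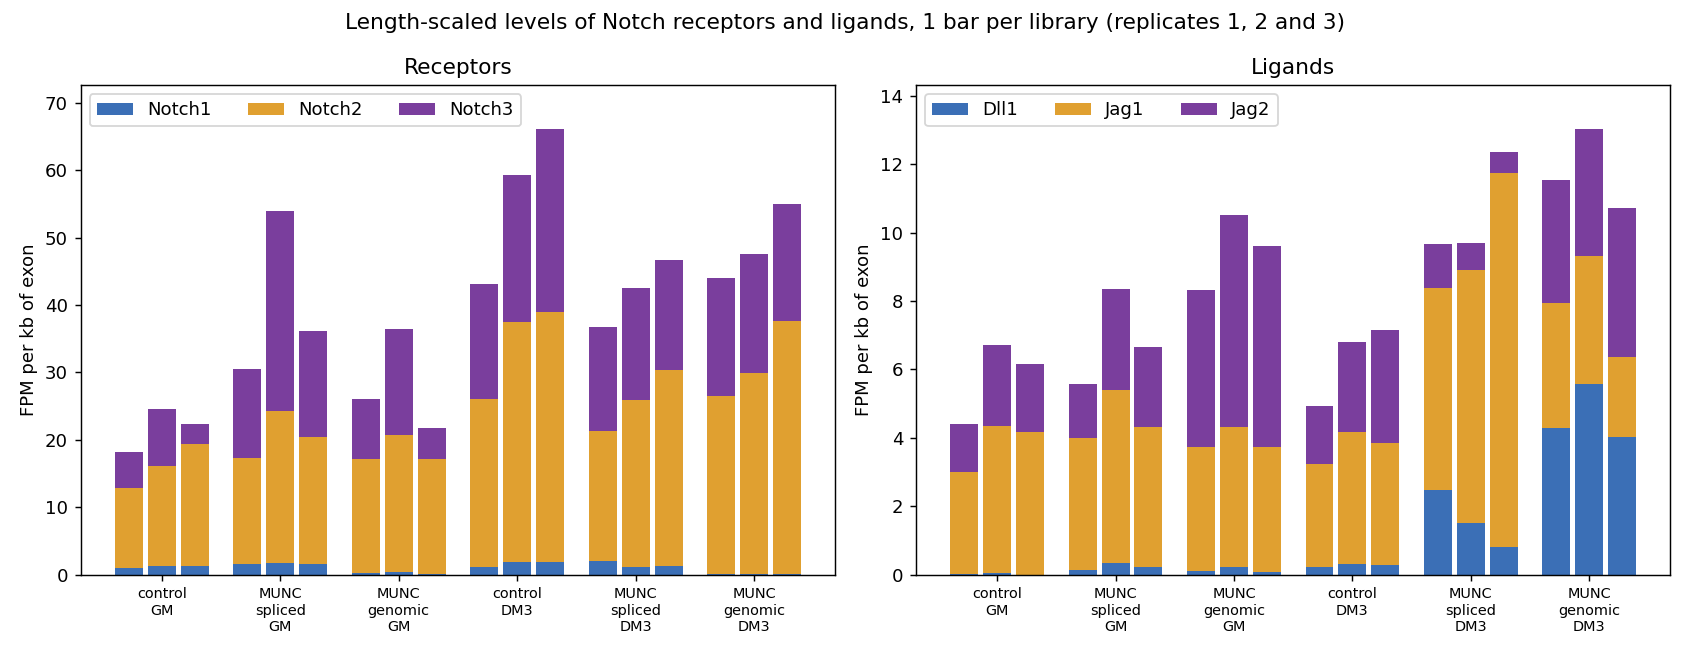
Level per length, in FPM per kb of exon on the vertical axis, of the 3 receptors (left) and the 3 ligands (right), stacked, with 1 bar for each library and replicates 1 to 3 from left to right in each group. Notch2 and Notch3 fill nearly all of every receptor bar, and Dll1 takes 37.1% to 42.8% of the ligand bars of MUNC genomic DM3.

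Notch1, the receptor most often tied to satellite cell quiescence (chromosome 2, 26457903 to 26516663, minus strand), was low in MUNC genomic cells in both media. The GM libraries gave 13.9, 19.0 and 19.4 FPM in control GM, 21.7, 25.04 and 23.1 FPM in MUNC spliced GM and 3.13, 4.69 and 1.43 FPM in MUNC genomic GM. The DM3 libraries gave 17.2, 26.1 and 26.4 FPM in control, 29.6, 15.3 and 17.4 FPM in MUNC spliced and 0.989, 1.27 and 0.644 FPM in MUNC genomic cells. All 6 MUNC genomic libraries were below the 12 others, and those of DM3 below those of GM, while control and MUNC spliced groups overlapped in DM3. The mean FPM was 5.64-fold lower than in control in GM and 24.1-fold lower in DM3, where the 3 libraries held 167 reads against 3656 in control.

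The differences from control passed the test in GM (log2 difference -2.24, SE 0.28, limma adjusted p = 1.54e-05) and in DM3 (log2 difference -3.61, SE 0.28, limma adjusted p = 2.89e-08). So did the spliced minus genomic differences, which were 2.65 in GM (SE 0.28, limma adjusted p = 1.65e-06) and 3.42 in DM3 (SE 0.28, limma adjusted p = 4.98e-08). Notch1 fell from GM to DM3 within MUNC genomic cells (log2 difference -0.98, SE 0.28, limma adjusted p = 0.00804). MUNC spliced passed no test against control, although each of its GM libraries was above control, at 0.41 in GM (SE 0.28, limma adjusted p = 0.272) and -0.19 in DM3 (SE 0.28, limma adjusted p = 0.619). The interaction of MUNC genomic with differentiation was -1.37 (limma adjusted p = 0.0409). It was lost without the filter on low values (adjusted p = 0.0891), in a fit of only the 4 groups compared (adjusted p = 0.051) and in 9 of 12 limma fits that left out 1 library, the exceptions being MUNC genomic GM replicate 3, control DM3 replicate 1 and control GM replicate 2. On the ratio scale edgeR gave -2.06 (adjusted p = 0.0239). Notch1 shares 7.5% of its exon bases with 0610009E02Rik on the opposite strand, which held at most 0.767 FPM.

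Notch2, the most abundant receptor message (chromosome 3, 98013527 to 98150361, plus strand), was higher in DM3 than in GM in control and MUNC genomic cells. It measured 129, 160.1 and 195 FPM in control GM, 171, 242 and 203 FPM in MUNC spliced GM and 183, 220.1 and 184 FPM in MUNC genomic GM. In DM3 the levels were 268, 385 and 400.5 FPM in control, 207, 268 and 315 FPM in MUNC spliced and 286, 322 and 405 FPM in MUNC genomic cells. DM3 was above GM in every library of control (log2 difference 1.12, SE 0.20, limma adjusted p = 0.000174) and of MUNC genomic cells (log2 difference 0.77, SE 0.20, limma adjusted p = 0.00414), and overlapped GM in MUNC spliced cells. No difference between lines within a medium passed, the libraries of neighbouring groups overlapping. With the replicate number as a block, MUNC spliced was above control in GM (0.35, limma adjusted p = 0.0246) and below it in DM3 (-0.41, limma adjusted p = 0.00942).

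Notch3, a receptor known from satellite cells and vessel walls (chromosome 17, 32120820 to 32166852, minus strand), was lowest in growing control cells. In growth medium it was at 43.0, 67.7 and 23.5 FPM in control GM, 107, 239.8 and 127 FPM in MUNC spliced GM and 71.2, 127 and 36.9 FPM in MUNC genomic GM. In DM3 it measured 137, 176 and 219 FPM in control, 125, 134 and 131 FPM in MUNC spliced and 142, 142 and 140.5 FPM in MUNC genomic cells. The GM libraries spread widely, with replicate 2 highest in each line, whereas the MUNC lines in DM3 lay within 125 to 142 FPM. Notch3 rose with differentiation in control cells (log2 difference 2.06, SE 0.39, limma adjusted p = 0.000302). It was already higher in MUNC spliced than in control GM (log2 difference 1.83, SE 0.39, limma adjusted p = 0.00186), where DM3 minus GM was -0.19 (limma adjusted p = 0.747). The MUNC spliced interaction was -2.25 (SE 0.55, limma adjusted p = 0.0149).

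Other Notch3 calls were near the threshold and were lost in several limma fits that left out 1 library (5 of 6 and 4 of 6, in the order given here). The rise with differentiation in MUNC genomic cells (log2 difference 1.01, SE 0.39, limma adjusted p = 0.0394) was 0.57 without MUNC genomic GM replicate 3 (limma adjusted p = 0.235). It was also lost without MUNC genomic GM replicate 1 or any 1 of the MUNC genomic DM3 replicates (values 1.01 to 1.03, limma adjusted p of 0.0748 to 0.082) in edgeR (adjusted p = 0.0891), without the filter and with only the groups compared. In GM the spliced minus genomic difference (log2 difference 1.08, SE 0.39, limma adjusted p = 0.0406) came from groups that overlapped. It became 0.63 without MUNC genomic GM replicate 3 and 0.73 without MUNC spliced GM replicate 2, and it lost the call in both limma fits, without MUNC genomic GM replicate 1 or MUNC spliced GM replicate 3, in edgeR (adjusted p = 0.067), without the filter and with only the groups compared. With the replicate number as a block within the medium, MUNC genomic exceeded control in GM (0.75, limma adjusted p = 0.0101) and MUNC spliced lay below control in DM3 (-0.42, limma adjusted p = 0.0198). Notch3 shares 6.03% of its exon bases with Gm17276 on the opposite strand, which held at most 0.209 FPM.

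Per kb of exon, Notch2 made up 69.0% ± 10.6 (SD, n = 3) of the 3 receptors in control GM and 48.6% ± 5.94 in MUNC spliced GM. Notch3 held 25.4% ± 11.02 in control GM, 47.2% ± 6.79 in MUNC spliced GM and 39.0% ± 2.12 in control DM3. Notch1 was the smallest part in each group, at 5.63% ± 0.410 in control GM, 0.737% ± 0.241 in MUNC genomic GM and 0.142% ± 0.0541 in MUNC genomic DM3. The sum of the 3 receptors in GM was 21.7 ± 3.21 FPM per kb in control, 40.2 ± 12.2 in MUNC spliced and 28.1 ± 7.55 in MUNC genomic cells. In DM3 it was 56.1 ± 11.8 in control, 42.0 ± 4.97 in MUNC spliced and 48.9 ± 5.56 in MUNC genomic cells.

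Rbpj, the DNA-binding factor of the pathway (chromosome 5, 53466152 to 53657362, plus strand), was lower in both MUNC lines than in control in GM. Its GM levels were 60.6, 99.4 and 50.1 FPM in control GM, 40.9, 39.7 and 38.0 FPM in MUNC spliced GM and 44.6, 52.6 and 39.6 FPM in MUNC genomic GM. Its DM3 levels were 69.9, 82.4 and 77.3 FPM in control, 51.8, 56.9 and 74.6 FPM in MUNC spliced and 48.4, 45.7 and 41.9 FPM in MUNC genomic cells. Control GM replicate 2 was far above the other 2 of its group, MUNC spliced GM was below all control libraries, and MUNC genomic GM overlapped control. In DM3 MUNC genomic was below every control library and MUNC spliced overlapped control. The difference from control passed in MUNC spliced GM (log2 difference -0.75, SE 0.19, limma adjusted p = 0.00649), in MUNC genomic GM (log2 difference -0.56, SE 0.19, limma adjusted p = 0.0411) and in MUNC genomic DM3 (log2 difference -0.74, SE 0.19, limma adjusted p = 0.00541).

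Without control GM replicate 2 the MUNC spliced difference in GM was -0.47 and still passed in limma (adjusted p = 0.0281), and in a fit of only these 2 groups its adjusted p was 0.0509. The MUNC genomic difference in GM became -0.28 without that library (limma adjusted p = 0.207), and its call was also lost without control GM replicate 1 or MUNC genomic GM replicate 1 or 3, without the filter, with equal sums and with only the groups compared. Within MUNC spliced cells Rbpj rose from GM to DM3 (log2 difference 0.60, SE 0.19, limma adjusted p = 0.0231), a call lost without MUNC spliced DM3 replicate 3 (0.45, limma adjusted p = 0.12) or MUNC spliced GM replicate 3 (0.57, limma adjusted p = 0.0727). Reads of Rbpj could have been split with its pseudogene Rbpj-ps3, listed at group means of 14.3 to 26.7 FPM, lowest in MUNC genomic DM3 and highest in control GM.

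Hes1, a repressor that many cells switch on under Notch (chromosome 16, 30064384 to 30067796, plus strand), passed the limma test in 0 of 11 comparisons, with 1 at an unadjusted p under 0.05, and was called in 0 in edgeR and 1 in DESeq2. The GM libraries gave 60.1, 54.2 and 29.9 FPM in control GM, 56.4, 54.4 and 25 FPM in MUNC spliced GM and 29.5, 41.3 and 14.5 FPM in MUNC genomic GM. After 3 days in DM3 it was at 109, 55.4 and 57.0 FPM in control, 92.4, 40.3 and 39.9 FPM in MUNC spliced and 86.3, 33.4 and 58.9 FPM in MUNC genomic cells. Replicate 1 was highest in each DM3 group and replicate 3 lowest in each GM group, and the groups overlapped. MUNC genomic GM was below control GM at each replicate number, with a log2 difference of -0.80 (SE 0.46, limma adjusted p = 0.22). With the replicate number as a block within the medium this difference passed (limma adjusted p = 0.000618), as did the spliced minus genomic difference of 0.68 in GM (limma adjusted p = 0.0011); without MUNC genomic GM replicate 3 the unblocked difference from control was -0.39. That block called 47% of all genes in MUNC genomic against control GM and 56.2% in spliced against genomic GM. From GM to DM3 Hes1 differed by 1.06 in MUNC genomic cells (SE 0.46), short of the threshold in limma (adjusted p = 0.0625) and past it in DESeq2 (adjusted p = 0.0292); without MUNC genomic GM replicate 2 or DM3 replicate 2 it passed in limma too (adjusted p = 0.0289 and 0.0271), while without GM replicate 3 it was 0.65.

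Hey1, a Hes-related repressor (chromosome 3, 8663359 to 8667256, minus strand), was a low message that fell in differentiation medium in control and MUNC genomic cells. It measured 2.68, 1.20 and 1.29 FPM in control GM, 1.46, 0.733 and 0.866 FPM in MUNC spliced GM and 1.19, 0.625 and 0.672 FPM in MUNC genomic GM. The DM3 libraries gave 0.288, 0.316 and 0.0737 FPM in control, 1.27, 0.261 and 0.145 FPM in MUNC spliced and 0.0396, 0.0452 and 0.0195 FPM in MUNC genomic cells. DM3 libraries lay below GM libraries in control and in MUNC genomic cells, and MUNC spliced DM3 replicate 1, the library richest in myotube genes, was within the GM range. Hey1 passed the filter through GM libraries and MUNC spliced DM3 replicate 1, the libraries where it was high. The fall passed in control (log2 difference -1.12, SE 0.24, limma adjusted p = 0.000727), with mean FPM 7.64-fold lower, and in MUNC genomic cells (log2 difference -0.81, SE 0.24, limma adjusted p = 0.00892). On the recovered reads of the same filtered genes edgeR gave -2.97 (adjusted p = 0.00158) and -4.49 (adjusted p = 0.000517). MUNC genomic DM3 held 6 Hey1 reads over 3 libraries, and its difference from control DM3 (-0.24, limma adjusted p = 0.449) did not pass, though it did in the authors' deposited table (log2 fold change -2.67, adjusted p = 0.0311). With the replicate block MUNC genomic was below control in GM (-0.55, limma adjusted p = 0.016), and with a block within the medium so was MUNC spliced (-0.41, limma adjusted p = 0.00906).

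Heyl, a further Hey-family repressor reported downstream of Notch in muscle (chromosome 4, 123233556 to 123249875, plus strand), was near 0 in control cells and present in both MUNC lines in both media. In growth medium it was at 0.137, 0.0531 and 0 FPM in control GM, 8.25, 13.6 and 2.40 FPM in MUNC spliced GM and 4.88, 6.43 and 0.546 FPM in MUNC genomic GM. In DM3 the levels were 0.0384, 0 and 0.0184 FPM in control, 4.02, 4.06 and 2.19 FPM in MUNC spliced and 11.95, 12.3 and 8.20 FPM in MUNC genomic cells. Every MUNC library was above every control library, and replicate 3 was lowest in all 4 MUNC groups. The 3 control GM libraries held 11 reads, of which 8 were in replicate 1, against 1203 in MUNC spliced GM and 748 in MUNC genomic GM. In DM3 control held 3 reads, against 566 in MUNC spliced and 1839 in MUNC genomic cells.

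Heyl entered the test through its MUNC libraries alone. Its difference from control passed for MUNC spliced in GM (log2 difference 2.86, SE 0.50, limma adjusted p = 0.000333) and in DM3 (log2 difference 2.09, SE 0.50, limma adjusted p = 0.00284). It passed for MUNC genomic in GM (log2 difference 1.94, SE 0.50, limma adjusted p = 0.00795) and in DM3 (log2 difference 3.52, SE 0.50, limma adjusted p = 2.9e-05). Without the filter on low values all 4 still passed in limma (adjusted p from 0.00022 to 0.0254). On the recovered reads edgeR gave larger log2 fold changes with adjusted p of 0.000252 or less in all 4, such as 6.94 in MUNC spliced GM and 5.96 in MUNC genomic GM. Without MUNC genomic GM replicate 2 the MUNC genomic difference in GM was 1.51 (limma adjusted p = 0.0502). The rise of Heyl from GM to DM3 in MUNC genomic cells (log2 difference 1.52, SE 0.50, limma adjusted p = 0.0172) was 0.82 without MUNC genomic GM replicate 3 (limma adjusted p = 0.118) and 1.42 without MUNC genomic DM3 replicate 2 (limma adjusted p = 0.0538), and was not called in edgeR (adjusted p = 0.084), in DESeq2 or with only the groups compared. In DM3 the spliced minus genomic difference (log2 difference -1.43, SE 0.50, limma adjusted p = 0.0275) was likewise lost in edgeR (adjusted p = 0.0555), in DESeq2, with a pseudocount of 0.1, without the filter and without MUNC spliced DM3 replicate 3 or MUNC genomic DM3 replicate 1 or 2 (values -1.35 to -1.21). The groups did not overlap in either of those comparisons.

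**Figure D3:**
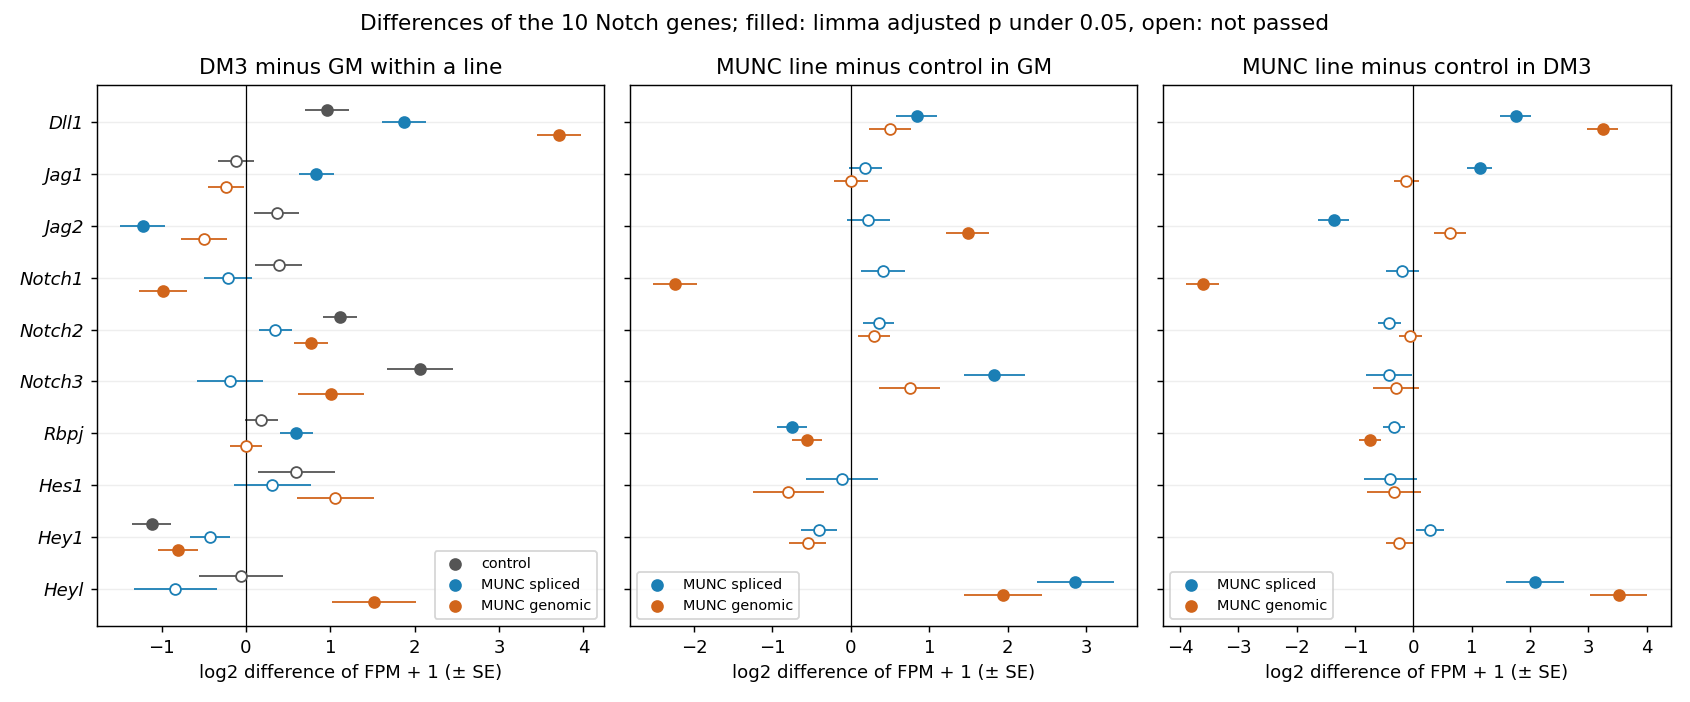
Difference of each gene on the log2(FPM + 1) scale with its standard error: DM3 minus GM within each line (left), and each MUNC line minus control in GM (middle) and in DM3 (right). Filled points passed limma's adjusted p under 0.05; Heyl is filled in all 4 comparisons with control and Hes1 in none.

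Per kb of exon Hes1 was the main message of the 3 target genes in every group, at 97.7% ± 0.758 (SD, n = 3) of their sum in control GM and 92.2% ± 4.38 in MUNC genomic DM3. Heyl took 0.0421% ± 0.0441 in control GM, 6.01% ± 2.75 in MUNC spliced GM and 7.75% ± 4.35 in MUNC genomic DM3, and Hey1 was at most 2.23% ± 0.751, in control GM. As a description over the 18 libraries, which share their 6 groups, the genes whose log2 levels followed Heyl most closely among 12141 genes were Pdgfd (Pearson r = 0.942), a growth factor, and Cxxc5 (r = 0.930). Pdgfd had a mean of 0.0932 FPM in control GM, against 35.6 FPM in MUNC genomic DM3. Nearest to Hey1 were Smarca5 (r = 0.946), a chromatin remodeler, and Agpat5 (r = 0.943). Nearest to Hes1 were Anxa6 (r = 0.861) and Rras (r = 0.843).

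A list of 62 further pathway genes was laid out by role, of which 52 passed the filter and 10 did not (Dll3, Dll4, Dlk1, Mfng, Dtx1, Hes2, Hes3, Hes5, Hes7 and Rbpjl). Their share of calls was 9.62% to 55.8% over the 11 comparisons, beside 8.81% to 58.2% of all tested genes. Differentiation of control cells called 19 higher and 10 lower (55.8% of the 52, background 58.2%). The same counts were called in MUNC genomic cells (background 51.4%), and MUNC spliced cells had 8 higher and 5 lower (25%, background 35.6%). Against control in GM, MUNC spliced had 12 higher and 5 lower (32.7%, background 35.5%) and MUNC genomic 10 higher and 8 lower (34.6%, background 26.8%). Against control in DM3 these were 12 and 13 for MUNC spliced (48.1%, background 43.3%) and 11 and 10 for MUNC genomic (40.4%, background 40.3%). MUNC spliced against MUNC genomic had 14 higher and 4 lower in GM (34.6%, background 35.8%), and 12 higher and 15 lower in DM3 (51.9%, background 44.2%). The interaction called 3 higher and 4 lower for MUNC spliced (13.5%, background 14.4%) and 3 higher and 2 lower for MUNC genomic (9.62%, background 8.81%). The median log2 difference of the 52 genes lay between -0.16 and 0.19 over the 11 comparisons, beside -0.033 to 0.028 for all tested genes.

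Lfng, a Fringe enzyme that adds sugar to Notch receptors and shifts which ligand they answer, was raised in MUNC spliced cells. It measured 7.89, 6.92 and 12.6 FPM in control GM and 46.0, 23.6 and 38.1 FPM in MUNC spliced GM, then, in DM3, 2.40, 2.17 and 1.88 FPM in control and 27.1, 11.8 and 10.6 FPM in MUNC spliced cells, with no overlap in either medium. The difference passed in GM (log2 difference 1.85, SE 0.32, limma adjusted p = 0.000313) and in DM3 (log2 difference 2.36, SE 0.32, limma adjusted p = 2.06e-05). In MUNC genomic cells it measured 13.3, 10.8 and 21.4 FPM in GM and 2.83, 3.07 and 2.91 FPM in DM3. Lfng fell with differentiation in all 3 lines, with log2 differences of -1.65 in control (limma adjusted p = 0.000354), -1.15 in MUNC spliced (limma adjusted p = 0.0109) and -1.98 in MUNC genomic cells (limma adjusted p = 9.04e-05).

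Of 5 tested genes of ligand endocytosis, 2 were called against control in MUNC spliced GM, beside 35.5% of all tested genes. The count was 2 in MUNC genomic GM (background 26.8%), 2 in MUNC spliced DM3 (background 43.3%) and 4 in MUNC genomic DM3 (background 40.3%). Neurl1b, a Neuralized-type ubiquitin ligase that helps ligands be taken into the cell, was at 10.8, 6.53 and 8.64 FPM in DM3 of control, 4.40, 2.49 and 2.17 FPM in DM3 of MUNC spliced and 2.51, 1.08 and 2.81 FPM in DM3 of MUNC genomic cells, both MUNC groups below control. It was lower than control in MUNC spliced cells in GM (log2 difference -1.41, SE 0.25, limma adjusted p = 0.000501) and in DM3 (log2 difference -1.28, SE 0.25, limma adjusted p = 0.000746), and the MUNC genomic line lay below control in DM3 (log2 difference -1.65, SE 0.25, limma adjusted p = 7.61e-05). In MUNC genomic GM it passed (log2 difference -0.89, SE 0.25, limma adjusted p = 0.0161) but not without MUNC genomic GM replicate 1 or 2 or control GM replicate 2 (limma adjusted p of 0.0539 to 0.0666). Its relative Neurl1a was higher than control in MUNC spliced GM (log2 difference 1.15, SE 0.18, limma adjusted p = 0.000162), in MUNC spliced DM3 (0.75, limma adjusted p = 0.00349) and in MUNC genomic DM3 (0.93, limma adjusted p = 0.000739). In MUNC spliced GM it was also higher than in GM of the genomic line (log2 difference 0.99, SE 0.18, limma adjusted p = 0.00055).

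Deltex proteins regulate the trafficking of Notch receptors. Dtx4 rose with differentiation in control (log2 difference 1.79, SE 0.29, limma adjusted p = 8.42e-05), in MUNC spliced, where 1 GM and 1 DM3 library overlapped (log2 difference 1.38, SE 0.29, limma adjusted p = 0.002), and MUNC genomic cells (log2 difference 2.76, SE 0.29, limma adjusted p = 2.63e-06). In DM3 it was higher in MUNC genomic, at 307, 344 and 327 FPM, than in MUNC spliced, at 54.8, 97.5 and 82.0 FPM (spliced minus genomic log2 difference -2.08, SE 0.29, limma adjusted p = 2.56e-05). Dtx3l, which partners Parp9 and is also known as an interferon-responsive gene, measured 14.7, 37.1 and 10.6 FPM in control GM and 303, 227 and 179.7 FPM in control DM3 (log2 difference 3.61, SE 0.36, limma adjusted p = 8.67e-07). It also rose in MUNC spliced (log2 difference 3.49, SE 0.36, limma adjusted p = 4.21e-06) and in MUNC genomic cells (log2 difference 1.44, SE 0.36, limma adjusted p = 0.00326). In MUNC genomic DM3 it was at 30.1, 26.7 and 29.3 FPM, below control (log2 difference -2.97, SE 0.36, limma adjusted p = 5.73e-06) and below MUNC spliced DM3 (spliced minus genomic log2 difference 2.75, SE 0.36, limma adjusted p = 1.12e-05). Its MUNC genomic interaction was -2.16 (SE 0.51, limma adjusted p = 0.0132). Aak1, a kinase of receptor uptake, was higher in MUNC genomic than in control GM (log2 difference 0.74, SE 0.20, limma adjusted p = 0.0121), 0.42 without control GM replicate 1, and not called with only the groups compared. Numbl, a relative of the Notch antagonist Numb, rose with differentiation in control (1.09, limma adjusted p = 3.91e-05), was below control in DM3 of both MUNC lines (-0.62 in MUNC spliced and -0.73 in MUNC genomic, both called in limma) and had a MUNC spliced interaction of -1.02 (SE 0.23, limma adjusted p = 0.0108).

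**Figure D4:**
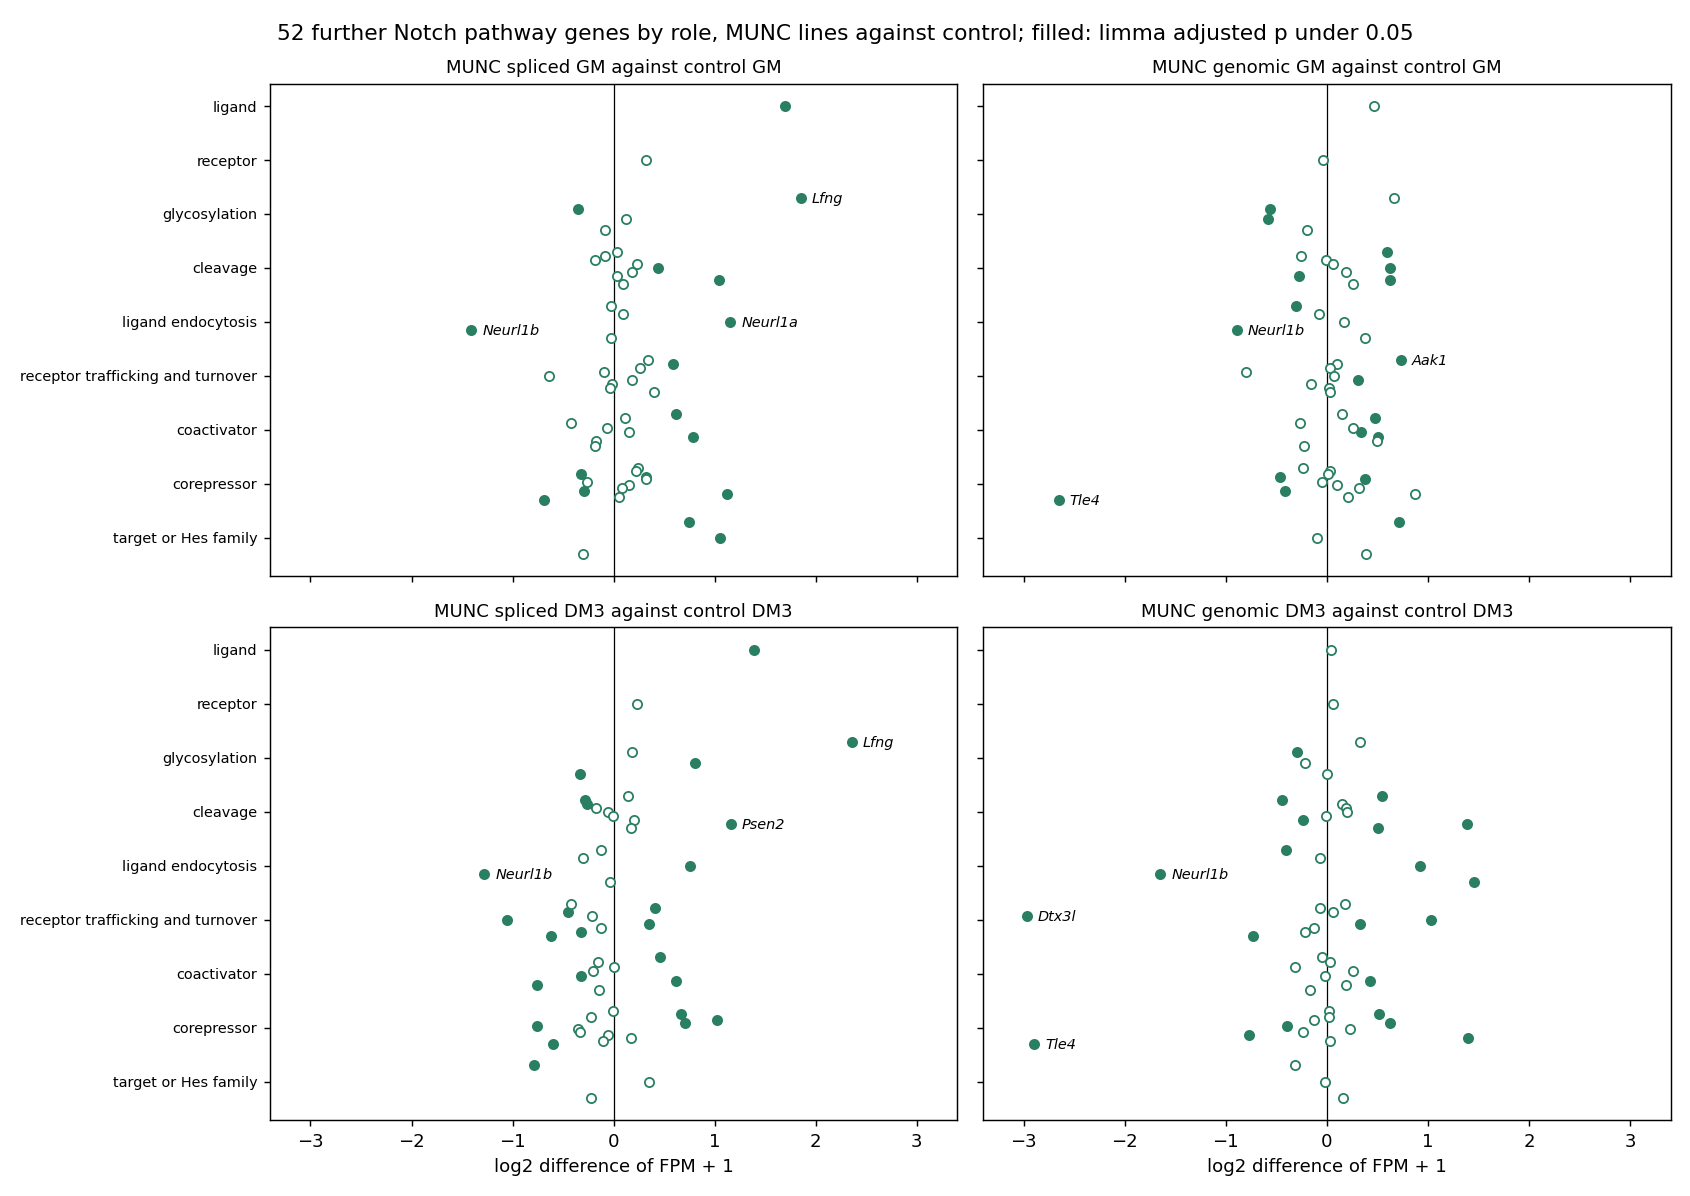
Difference from control of 52 further pathway genes on the log2(FPM + 1) scale (horizontal axis), grouped by role (vertical axis), for each MUNC line in GM (top) and DM3 (bottom). Filled points passed limma's adjusted p under 0.05, and the 3 greatest called differences among genes with at least 5 FPM in the higher group are named; Tle4 is far to the left in both MUNC genomic panels.

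Among corepressors, Tle4, a Groucho-family partner of Hes proteins, had no read in any of the 6 MUNC genomic libraries. It measured 5.96, 4.87 and 5.07 FPM in control GM and 3.66, 2.55 and 2.58 FPM in MUNC spliced GM, and its DM3 values were 8.45, 5.58 and 5.62 FPM in control and 4.96, 2.84 and 4.19 FPM in MUNC spliced cells. Tle4 thus entered the test through control and MUNC spliced libraries alone. Set against a floor of 3 reads in a library, MUNC genomic was at least 84.1-fold lower than control in GM and at least 110.3-fold lower in DM3, and both differences passed in limma (adjusted p = 3.35e-09 and 8.19e-10). MUNC spliced was also below control, by a log2 difference of -0.69 in GM (limma adjusted p = 0.00482) and -0.60 in DM3 (limma adjusted p = 0.009). Its relative Tle2 rose with differentiation in control (log2 difference 1.91, SE 0.39, limma adjusted p = 0.000579) and MUNC genomic cells (log2 difference 2.44, SE 0.39, limma adjusted p = 9.02e-05). Mean Tle2 went from 16.3 FPM in GM to 63.7 FPM in DM3 in control, from 32.5 to 169 FPM in MUNC genomic and from 40.0 to 75.7 FPM in MUNC spliced cells. Hdac1, a deacetylase of corepressor complexes, was higher in the spliced than in the genomic line in GM (log2 difference 0.79, SE 0.12, limma adjusted p = 6.87e-05) and in DM3 (1.15, limma adjusted p = 6.31e-07). It fell with differentiation in control (-0.97) and MUNC genomic cells (-0.64), both called in limma, and had a MUNC spliced interaction of 0.70 (limma adjusted p = 0.0124). Ctbp1 had a MUNC genomic interaction of 0.49 (limma adjusted p = 0.0492) that was lost in 10 of 12 fits without 1 library.

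Of the coactivators, the Mastermind-like gene Maml2 rose with differentiation in all 3 lines, by 1.44 on the log2 scale in control (limma adjusted p = 7.89e-07), 1.28 in MUNC spliced (limma adjusted p = 8.92e-06) and 1.36 in MUNC genomic cells (limma adjusted p = 2.19e-06). Psen2, a catalytic part of the gamma-secretase that frees the Notch intracellular piece, was higher than control in both MUNC lines and both media. The log2 difference was 1.04 in MUNC spliced GM and 0.63 in MUNC genomic GM, then 1.16 in MUNC spliced DM3 and 1.38 in MUNC genomic DM3 (limma adjusted p from 1.14e-07 to 0.00101). Psen2 had a MUNC genomic interaction of 0.76 (SE 0.17, limma adjusted p = 0.01). Hes6, a Hes-family protein known to favour differentiation and not a usual Notch target, measured 16.9, 11.6 and 10.7 FPM in control GM and 56.8, 61.4 and 61.4 FPM in control DM3 (log2 difference 2.13, SE 0.23, limma adjusted p = 1.99e-06). It measured 21.3, 28.3 and 18.4 FPM in MUNC spliced GM and 48.6, 39.2 and 20.7 FPM in MUNC spliced DM3, groups that overlapped and whose difference did not pass (0.59, limma adjusted p = 0.0597). The interaction was -1.54 (SE 0.33, limma adjusted p = 0.0075).

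The authors' deposited tables cover 5 of these comparisons, giving 50 pairs of a member and a comparison. In 46 pairs they made the same call as limma here, and in the 19 called by both the direction was the same. Of the 4 that differed, Jag2 and Hey1 in MUNC genomic DM3 are given above, and Dll1 in MUNC genomic GM was called in the authors' deposited table (log2 fold change 2.54, adjusted p = 0.0184). Rbpj in MUNC genomic GM was not called there (log2 fold change -0.58, adjusted p = 0.0937).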

How the data were processed

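RNA was poly(A)-selected and sequenced on an Illumina HiSeq, per the labels' protocols. STAR, HTSeq and DESeq2 are named with the mm10 build, per the submitters' processing notes, without their roles; the annotation and strand setting are not given in the sources used here. The deposited signal values, in FPM, are read counts per gene that the authors scaled with library size factors: all values (100%) came out as whole reads within 0.05 read. The authors' deposited comparison tables hold log2 fold changes and p-values of their own, and were used only to pair symbols with gene IDs and where a sentence names them. The source field of 9 samples disagrees with the titles on the medium; titles were used.

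The 10 members, the pathway and marker lists and the comparisons were chosen with earlier results of these data known. limma 3.58.1 (R 4.3.3) fitted log2(FPM + 1) of the 13869 genes with at least 0.5 FPM in at least 3 libraries, all 18 libraries in 1 model with 6 groups and 12 residual degrees of freedom, with Benjamini-Hochberg adjustment over all genes tested in each of 11 comparisons. The pathway genes named are, per comparison, the 3 called genes with the greatest differences among those with at least 5 FPM in the higher group. Likeness was Pearson's r of log2 levels over 18 libraries, among genes averaging at least 1 FPM. Lengths and coordinates are of GENCODE M21 on GRCm38 (mm10), and upstream sequence is RefSeq's on GRCm38.p6; 7 of 10 members had an entry, and Hes1, Hey1 and Heyl had none. Dll1, Notch1 and Rbpj were therefore shown instead, and this choice and the E-box letters were added after seeing the data.

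Recovered depth was 38416702 to 68788327 reads, so 3 reads were at most 0.0757 FPM; this covers counting error only. Alternatives were another pseudocount (0.1), no filter, equal sums per library, quantile normalization, only the groups compared, the replicate number as a block, edgeR 4.0.16 and DESeq2 1.42.0 on the recovered reads, leaving out each library, and, added after seeing the data, a block within each medium. The scripts were tested on simulated data. The numbers in the titles pair the groups of a comparison where all 3 correlations of same-numbered libraries' deviations from their group means were above 0.1. That held in 6 of 9 comparisons: control DM3 against GM (0.203 to 0.411), MUNC spliced and MUNC genomic against control in GM (0.495 to 0.711 and 0.494 to 0.726) and in DM3 (0.171 to 0.340 and 0.274 to 0.448), and spliced against genomic in GM (0.456 to 0.727). It did not in the other 3, whose lowest correlations were 0.0163, 0.0531 and 0.0939.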

Additional observations from a re-analysis of the deposited data

Results flagged for a closer look

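For 5 genes the difference between DM3 and GM in a MUNC line departed from that in control cells by a test of the difference itself, the limma interaction term. In MUNC spliced cells Jag1 rose by 0.95 more on the log2 scale than in control (adjusted p = 0.0444), Jag2 changed by -1.59 relative to control (adjusted p = 0.0133) and Notch3 by -2.25 (adjusted p = 0.0149). In MUNC genomic cells Dll1 rose by 2.75 more than in control (limma adjusted p = 0.000191) and Notch1 changed by -1.37 relative to control (limma adjusted p = 0.0409). On the ratio scale the Dll1 term was not called, with 1.60 in edgeR (adjusted p = 0.367) and 1.57 in DESeq2 (adjusted p = 0.206). When 1 library was left out, the Notch1 term lost its limma call in 9 of 12 fits (adjusted p up to 0.108) and the Jag1 term in 9 of 12 (adjusted p up to 0.0925). Without MUNC spliced DM3 replicate 1, the library richest in myotube genes, the limma values were 1.15 for Jag1, -1.84 for Jag2 and -2.22 for Notch3, and all 3 kept their calls.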

How the results depend on the processing

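No difference changed direction. Of 78 single-gene results, 76 kept their call with a pseudocount of 0.1 and with quantile normalization, 75 with equal sums, 74 in DESeq2, 72 in edgeR, 70 without the filter and 69 with only the groups compared; equal sums and quantile normalization moved the median of all genes by under 0.1 (log2). Low levels of Dll1, Hey1 and Heyl limit what their log2 differences can show, and 3 libraries a group limit every test.

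Counts of called members moved by more than 1.5 times as follows. With the replicate block within each medium, 8 members were called for MUNC genomic against control GM (4 without a block), beside 47% of all tested genes (26.8%). For MUNC spliced against MUNC genomic DM3 that block called 8 (5), beside 56% (44.2%), and for the same lines in GM 5 (3), beside 56.2% (35.8%). With the replicate block over all libraries, 6 were called for the MUNC spliced interaction (3), beside 27.9% of all tested genes (14.4%). For the MUNC genomic interaction, 1 member was called without the filter, with only the groups compared, in edgeR and in DESeq2 (2), and 1 to 2 when a library was left out. The block ended no call of a member. In comparisons whose numbers did not pair the libraries, the replicate block over all libraries also called Notch2 and Hey1 for MUNC spliced DM3 against GM (limma adjusted p = 0.0264 and 0.0428), Hes1 for MUNC genomic DM3 against GM (0.0116), Notch2 and Hey1 for MUNC spliced against MUNC genomic DM3 (0.019 and 0.0141), and Dll1, Notch2 and Hey1 for the MUNC spliced interaction (0.0497, 0.00505 and 0.0378).

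Of the 52 pathway genes, with only the groups compared 11 were called for MUNC genomic against control GM (18) and 8 for MUNC spliced DM3 against GM (13). The replicate block called 25 for MUNC spliced DM3 against GM (13), beside 47.7% of all tested genes (35.6% without a block). That block called 10 for the MUNC genomic interaction (5), beside 16.3% (8.81%), and 14 for the MUNC spliced interaction (7), beside 27.9% (14.4%). The block within each medium called 31 for MUNC genomic against control GM (18), beside 47% of all tested genes (26.8% without a block). For MUNC spliced against control GM the count was 29 (17), beside 55.9% (35.5%). For MUNC spliced against MUNC genomic GM it was 29 (18), beside 56.2% (35.8%). The MUNC genomic interaction called 3 with a pseudocount of 0.1 and 2 in edgeR (5). Leaving out 1 library gave 10 to 18 for MUNC genomic against control GM and 3 to 7 for the MUNC genomic interaction. Where fewer libraries or groups entered a fit, it had fewer residual degrees of freedom; otherwise the cause was not tested.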
